A study of Mus musculus with 6 samples.

Results

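The 10 genes described here encode transcription factors that are known for laying out the eye field and for marking progenitors of the retina: Pax6, Six3, Six6, Rax, Lhx2, Lhx9, Meis1, Meis2, Sox2 and Vax2. They were chosen by gene symbol, and each of the 10 has a row among the 24346 gene rows of every library. The series holds 6 libraries labelled as mouse brain at embryonic day 17.5. In 3 of them the genotype is labelled miR-124a-1/2 DKO, a double knockout of 2 of the genes that make the neuronal microRNA miR-124a. The other 3 are labelled control and miR-124a-1+/-, so both groups carry at least 1 changed miR-124a-1 allele and no wild type is among them. The labels give no strain, litter or sex, do not say which part of each gene was removed, and do not say that the 6 brains are from separate embryos, so p-values measure the spread between these libraries, which may be technical in part.

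In the vertebrate embryo these factors act together in the anterior neural plate. Rax, Pax6, Six3, Six6 and Lhx2 set the eye field apart from the rest of the forebrain, Vax2 marks the ventral optic cup, and Sox2 keeps neural progenitors undifferentiated. Most of them are not switched off when the retina matures. In the mature mouse retina Pax6 stays on in amacrine, ganglion and horizontal cells, Meis2 in GABAergic amacrine cells, Lhx9 in a set of amacrine cells, Six3 and Six6 in inner retinal neurons, and Rax, Lhx2 and Sox2 in Müller glia. Lhx2 is also a known target of miR-124a in the mouse retina.

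Marker genes stood against the labelled tissue and age, in both groups alike. Sag, the rod arrestin, averaged 3169 FPKM (sequenced fragments per kilobase, scaled to the mapped total of the library) in the libraries labelled DKO and 3403 FPKM in those labelled control. Of 10 genes of a cortex and hippocampus list, Emx1 and Emx2 are listed at 0 in all 6 libraries, Neurod6 lay at 0.493 to 1.08 FPKM, and the highest were Fezf2 (6.66 to 9.08 FPKM), Neurod2 (4.94 to 6.29) and Eomes (3.72 to 5.91), of which Neurod2 and Eomes also stand on the retinal lists. The list summed to 20.9 to 23.5 FPKM in the libraries labelled DKO and 21.1 to 23.2 FPKM in those labelled control. Mki67, a gene of dividing cells, lay at 0.0765 to 0.262 FPKM, and Fgf15 and Foxn4, genes of retinal progenitors, at 0 to 0.173 and 0 to 0.0998 FPKM. The label of the 10 genes as progenitor factors therefore describes what they are known for, and not the state of the cells measured here. The transcript that holds miR-124a-1, Mir124a-1hg, measured 464 to 510 FPKM in the libraries labelled DKO and 420 to 528 FPKM in those labelled control. The transcript that holds miR-124a-2, listed as 2610100L16Rik, measured 69.9 to 98.0 FPKM in the libraries labelled DKO and 80.3 to 115 FPKM in those labelled control (log2 difference -0.20, overlapping groups), so neither transcript shows the loss named in the genotype labels. The files give no read totals, and steps between low values put the depths within 0.956 to 1.24 times that of DKO replicate 1.

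All 10 factors were present in all 6 libraries, and their levels ran over more than an order of magnitude. Averaged over the 6 libraries, Pax6 was the highest at 102 FPKM, above 97% of all gene rows, followed by Rax at 67.8, Six3 at 36.2 and Meis2 at 30.5 FPKM. Below them Vax2 (22.5 FPKM), Six6 (21.0), Lhx2 (20.7) and Meis1 (20.5) lay close together, then Sox2 at 12.2 and Lhx9 at 4.66 FPKM. FPKM is scaled to transcript length, so these levels are set side by side, with a limit. The annotation used is not given, and reads of overlapping genes may not have been told apart, so levels may be shifted between genes. The ranges over the 6 libraries did not overlap between neighbours in this order, except between Vax2 and Six6, Six6 and Lhx2, and Lhx2 and Meis1, whose order is within the spread of the libraries. The spread within a group, as SD over mean, was smallest for Meis1 in the libraries labelled DKO (1.67%) and was 12.3% to 14.4% for Rax and Lhx9 over both groups.

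**Figure D1:**
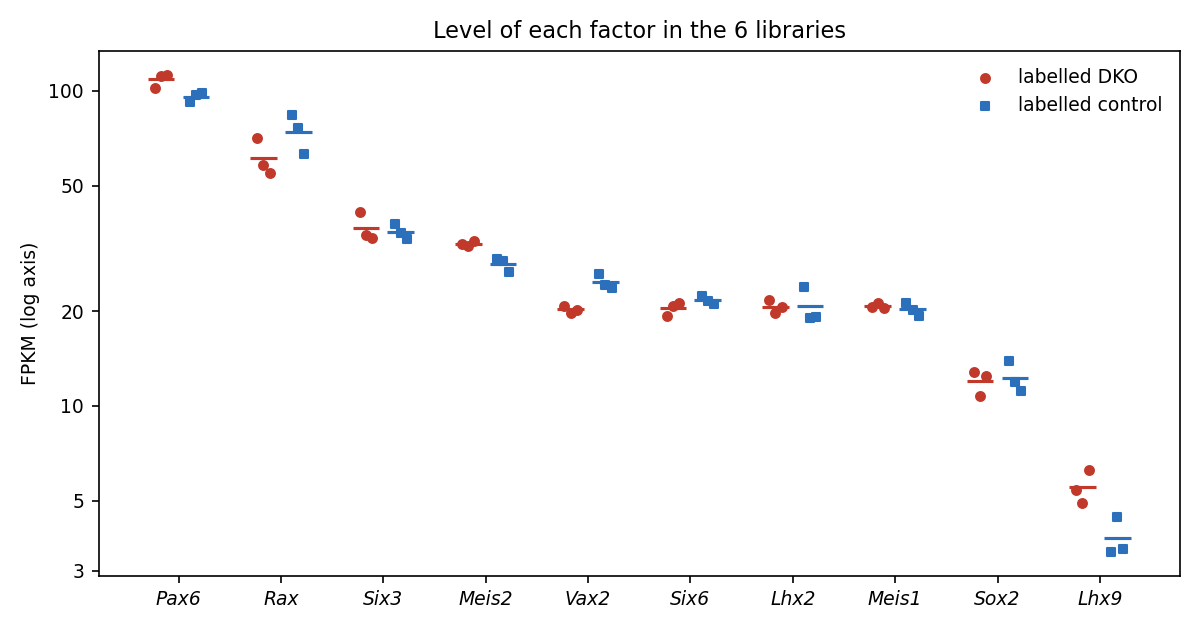
Level of each factor in FPKM on a log axis, with 3 libraries labelled DKO (red circles) left of 3 labelled control (blue squares) and a bar at each group mean. Pax6, Meis2 and Lhx9 have every red point above every blue point, and Vax2 has every red point below every blue point.

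In 4 of the 10 factors the libraries labelled DKO did not overlap those labelled control: Lhx9, Meis2 and Pax6 were higher and Vax2 was lower. None of the 10 passed the test across all genes, which was limma on log2(FPKM + 1) with Benjamini-Hochberg adjustment over 13215 rows and a threshold of 0.05, and which called 0.0227% of rows. The groups did not overlap in 13.9% of all tested rows, 6.96% of them higher and 6.95% lower in the libraries labelled DKO. At an unadjusted limma p under 0.05 the same 4 factors were counted, against 7.88% of all tested rows (3.52% higher and 4.36% lower). The median log2 difference of the 10 factors was 0.02, against -0.0016 for all tested rows, with 6 factors above 0 and 4 below. The sign of that median rests on single libraries: it was -0.04 without DKO replicate 1, -0.02 without control replicate 3, -0.0096 without control replicate 2 and 0.07 without control replicate 1. Their median absolute log2 difference was 0.13, against 0.069 for all tested rows. Adjusted p-values of the 10 lay between 0.308 and 0.994 (limma, Benjamini-Hochberg).

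**Figure D2:**
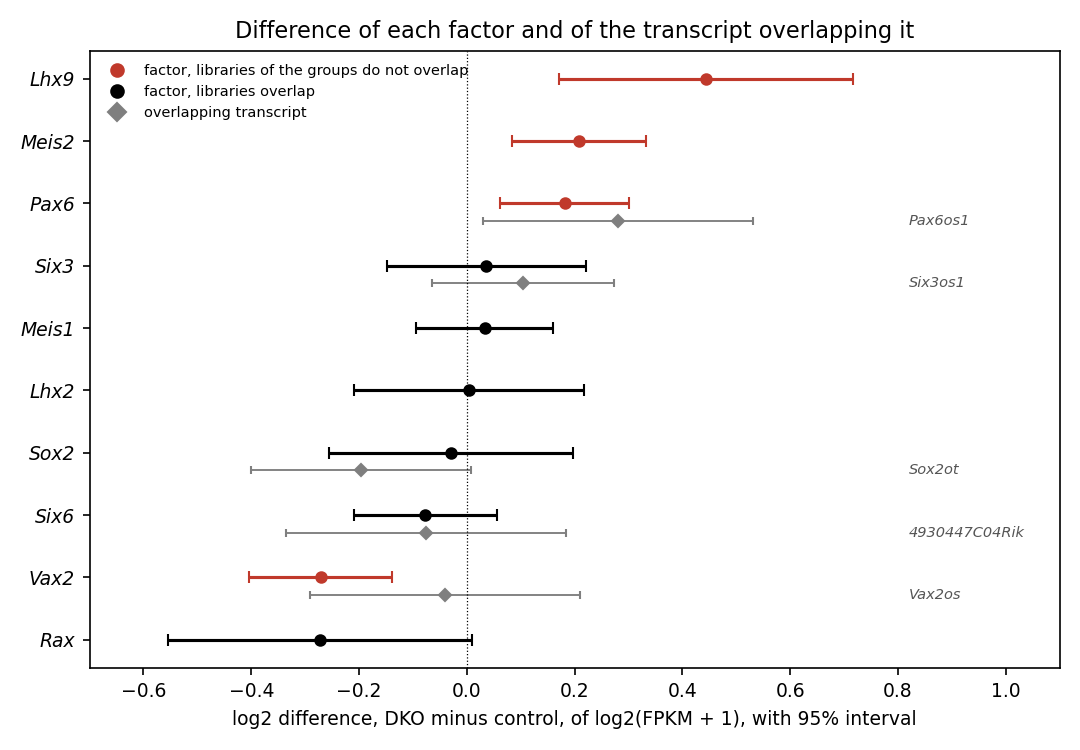
Log2 difference of each factor (DKO minus control, on log2(FPKM + 1)) with its 95% confidence interval from limma, and in grey that of the transcript whose gene overlaps it. Lhx9 at 0.44 stands highest, and Rax and Vax2 lie lowest at -0.27 each, the interval of Rax reaching just past 0.

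Pax6, a paired-box and homeobox factor that the eye cannot form without (ENSMUSG00000027168, GRCm38 chromosome 2, 105668900 to 105697364), measured 102, 112 and 113 FPKM in the libraries labelled DKO and 92.5, 96.9 and 98.2 FPKM in those labelled control. The lowest library labelled DKO stood above the highest labelled control. The means were 109 ± 5.76 and 95.9 ± 2.99 FPKM (SD, n = 3 each), a difference of 13.6%. The log2 difference was 0.18 with SE 0.052 (limma, unadjusted p = 0.0083, Benjamini-Hochberg adjusted p = 0.467).

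The MEIS factors belong to the TALE class of homeobox proteins, bind DNA together with PBX proteins and are known in the mouse eye as regulators of Pax6. Meis2 (ENSMUSG00000027210, chromosome 2, 115863064 to 116065839) measured 32.7, 32.1 and 33.5 FPKM in the libraries labelled DKO and 29.3, 28.8 and 26.6 FPKM in those labelled control. The groups were apart, and the SD of the libraries labelled DKO was 2.07% of their mean. The log2 difference was 0.21 with SE 0.054 (limma, unadjusted p = 0.0049, Benjamini-Hochberg adjusted p = 0.412). Meis1 (ENSMUSG00000020160, chromosome 11, 18879817 to 19018985) had 20.6, 21.2 and 20.5 FPKM in the libraries labelled DKO and 21.3, 20.2 and 19.4 FPKM in those labelled control. Its groups overlapped, and the 95% interval of its log2 difference was -0.09 to 0.16. The log2 ratio of Meis2 to Meis1 was 0.67, 0.60 and 0.71 in the libraries labelled DKO and 0.46, 0.51 and 0.46 in those labelled control. That ratio did not overlap between groups and differed by 0.18, with p = 0.1 in a 2-sided exact permutation test, the smallest p that 3 libraries against 3 can give.

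Of the LIM-homeobox factors, Lhx9 had the largest relative difference among the 10 factors and Lhx2 the smallest. Lhx9 (ENSMUSG00000019230, chromosome 1, 138825186 to 138848577) measured 5.40, 4.92 and 6.26 FPKM in the libraries labelled DKO and 3.44, 4.43 and 3.53 FPKM in those labelled control. The groups were apart by 0.49 FPKM at their nearest libraries, DKO replicate 2 and control replicate 2. The mean was 45.4% higher in the libraries labelled DKO, and the log2 difference was 0.44 with SE 0.12 (limma, unadjusted p = 0.0057, Benjamini-Hochberg adjusted p = 0.418). Lhx2 (ENSMUSG00000000247, chromosome 2, 38339281 to 38369733), which Müller glia need to keep their mature state, measured 21.7, 19.7 and 20.6 FPKM in the libraries labelled DKO and 23.9, 19.0 and 19.1 FPKM in those labelled control. Control replicate 1 was the highest of the 6, and the other 5 lay between 19.0 and 21.7 FPKM. The log2 difference of Lhx2 was 0.0039, with a 95% interval from limma of -0.21 to 0.22. The log2 ratio of Lhx2 to Lhx9 averaged 1.91 ± 0.165 in the libraries labelled DKO and 2.45 ± 0.347 in those labelled control (SD, n = 3 each; exact permutation p = 0.1).

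The sine oculis homeobox factors Six3, which in the mouse forebrain holds Wnt signalling down, and Six6, which promotes growth of the retina, overlapped between groups. Six3 (ENSMUSG00000038805, chromosome 17, 85613608 to 85629302) measured 41.2, 34.9 and 34.1 FPKM in the libraries labelled DKO and 37.8, 35.5 and 33.8 FPKM in those labelled control. Six6 (ENSMUSG00000021099, chromosome 12, 72939892 to 72944899) measured 19.3, 20.7 and 21.3 FPKM in the libraries labelled DKO and 22.3, 21.6 and 21.1 FPKM in those labelled control. DKO replicate 1 held both the highest Six3 and the lowest Six6 value of the 6 libraries. The 95% interval of the log2 difference was -0.15 to 0.22 for Six3 and -0.21 to 0.06 for Six6, and the log2 ratio of Six3 to Six6 differed by 0.12 (exact permutation p = 0.7). Without DKO replicate 1 that difference was -0.0077 (exact permutation p = 0.8).

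Rax and Vax2, the remaining homeobox factors, were lower in the libraries labelled DKO, Vax2 without overlap. Vax2 (ENSMUSG00000034777, chromosome 6, 83711264 to 83738313) gives the ventral retina its identity and shapes the gradient of cone opsins in the mouse. It measured 20.8, 19.8 and 20.2 FPKM in the libraries labelled DKO and 26.2, 24.2 and 23.6 FPKM in those labelled control. The libraries labelled DKO lay within 1 FPKM of each other, below all 3 labelled control, and Vax2 had the smallest p of the 10 factors. Its log2 difference was -0.27 with SE 0.057 (limma, unadjusted p = 0.0015, Benjamini-Hochberg adjusted p = 0.308). Rax (ENSMUSG00000024518, chromosome 18, 65928277 to 65939787), without which no optic vesicle forms, measured 71.0, 58.2 and 54.9 FPKM in the libraries labelled DKO and 83.6, 76.4 and 63.0 FPKM in those labelled control. The size of its log2 difference was the same, -0.27, but with SE 0.12 the 95% interval was -0.55 to 0.0093 (limma, unadjusted p = 0.0563), and DKO replicate 1 stood above control replicate 3.

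Sox2 (ENSMUSG00000074637, chromosome 3, 34650405 to 34652461), a high-mobility-group factor of neural progenitors that Müller glia and cholinergic amacrine cells keep in the mouse retina, measured 12.8, 10.7 and 12.4 FPKM in the libraries labelled DKO and 13.9, 11.9 and 11.1 FPKM in those labelled control. The groups overlapped, with a log2 difference of -0.03 and a 95% interval from limma of -0.26 to 0.20.

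**Figure D3:**
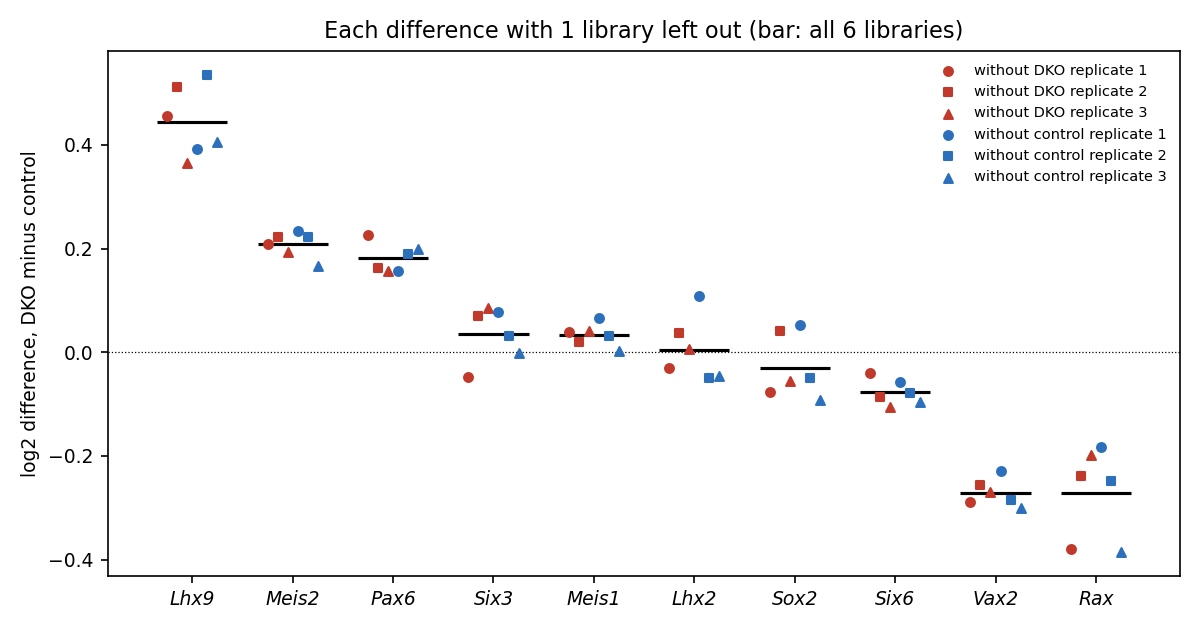
Log2 difference of each factor with all 6 libraries (black bar) and with each library left out in turn (red for a library labelled DKO, blue for one labelled control). Lhx9, Meis2 and Pax6 stay above 0 and Vax2, Rax and Six6 below 0 in each case, while Six3, Lhx2 and Sox2 cross 0.

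In GENCODE M21, 5 of the 10 factors overlap another gene with a row in the files, 4 of them on the opposite strand. The library kit marks strand, but whether the counting used it is not given in the sources used here, so reads of overlapping genes may not have been told apart. Pax6os1, which shares 1431 bases with the 5′ end of Pax6, measured 5.05, 5.18 and 5.86 FPKM in the libraries labelled DKO and 4.40, 4.73 and 3.62 FPKM in those labelled control. Like Pax6 it did not overlap between groups (log2 difference 0.28, limma, Benjamini-Hochberg adjusted p = 0.597), and the part of shared bases in this was not tested. Vax2os, which shares 938 bases with Vax2, measured 50.9, 44.1 and 55.9 FPKM in the libraries labelled DKO and 44.8, 53.1 and 57.4 FPKM in those labelled control. It was more abundant per length than Vax2 in every library, its groups overlapped, and its log2 difference was -0.04. Six3os1, which shares 4791 bases with Six3, averaged 56.0 ± 4.59 FPKM in the libraries labelled DKO and 52.0 ± 3.69 FPKM in those labelled control (SD, n = 3 each) and was likewise above its partner in every library. Sox2ot, a noncoding transcript on the same strand that spans all of Sox2, measured 4.53, 5.43 and 5.02 FPKM in the libraries labelled DKO and 5.64, 5.84 and 6.10 FPKM in those labelled control, a log2 difference of -0.20 with no overlap (limma, Benjamini-Hochberg adjusted p = 0.646). The gene 4930447C04Rik, which shares 883 bases with Six6, had a log2 difference of -0.08 with overlapping groups.

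A 7-base match to the seed of miR-124, GTGCCTT, was searched on the transcript strand of every annotated 3′ UTR. It was found for 4 of the 10 factors, against 17.2% of the 12170 tested genes with an annotated 3′ UTR. The sites are shown because such a match in a 3′ UTR is what the microRNA pairs with. They are given 5′ to 3′ on the transcript strand from GENCODE M21, with the match in capitals.
Lhx2: aagactgccacGTGCCTTaggaatactgt
Six6: tccttaattttGTGCCTTggttggtggtg
Six3: ttttgaacccaGTGCCTTgcaggggtcac
Lhx9: agttctcctatGTGCCTTatgatataact
In GRCm38 these windows are chr2:38369431-38369459 (plus strand) for Lhx2, chr12:72943944-72943972 (plus) for Six6, chr17:85628555-85628583 (plus) for Six3 and chr1:138829520-138829548 (minus) for Lhx9. The site is in 1 of 2 annotated coding transcripts with a 3′ UTR for Lhx2, in the single one for Six6, in 1 of 3 for Six3 and in 1 of 5 for Lhx9, and the FPKM values do not tell these transcripts apart. Of the 4 factors with a site, Lhx9 was higher without overlap (log2 difference 0.44), while Lhx2 (0.0039), Six3 (0.04) and Six6 (-0.08) overlapped between groups. Pax6, Meis1, Meis2, Rax, Sox2 and Vax2 held no such letters in any annotated 3′ UTR. Over all tested genes with a 3′ UTR, the median log2 difference was 0.00057 with a site and -0.0022 without.

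Promoters of the factors that were higher without overlap are printed next, as 250 bases before and 50 bases after a RefSeq transcription start (GRCm38.p6), 5′ to 3′ on the strand of the gene. Capitals mark the hexamer TGACAG, a core word that MEIS proteins are known to bind, on either strand (CTGTCA on the other).
Lhx9: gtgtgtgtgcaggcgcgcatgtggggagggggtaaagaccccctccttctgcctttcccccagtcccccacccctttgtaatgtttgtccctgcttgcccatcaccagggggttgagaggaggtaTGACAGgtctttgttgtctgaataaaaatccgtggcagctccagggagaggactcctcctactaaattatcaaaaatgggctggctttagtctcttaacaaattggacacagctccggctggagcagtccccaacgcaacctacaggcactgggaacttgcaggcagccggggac
Pax6: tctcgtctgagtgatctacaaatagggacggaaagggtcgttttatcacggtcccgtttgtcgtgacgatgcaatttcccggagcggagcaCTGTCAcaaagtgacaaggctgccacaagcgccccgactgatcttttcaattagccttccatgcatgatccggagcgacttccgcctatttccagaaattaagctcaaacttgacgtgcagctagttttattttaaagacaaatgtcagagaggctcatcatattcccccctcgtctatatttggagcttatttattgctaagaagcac
Meis2: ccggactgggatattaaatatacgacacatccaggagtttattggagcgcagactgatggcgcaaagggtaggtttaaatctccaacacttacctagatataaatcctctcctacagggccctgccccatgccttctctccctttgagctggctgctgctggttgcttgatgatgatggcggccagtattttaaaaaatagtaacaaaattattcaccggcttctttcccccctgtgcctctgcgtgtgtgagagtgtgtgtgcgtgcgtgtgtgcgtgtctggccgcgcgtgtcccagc
The windows are chr1:138842395-138842694 (minus strand) for Lhx9, chr2:105682213-105682512 (plus) for Pax6 and chr2:116064570-116064869 (minus) for Meis2. The table gives Pax6 a further start, chr2:105668646-105668945, whose window does not hold the word. Of the 10 windows searched, which belong to 8 of the factors, 5 held TGACAG (1 each of Lhx9, Pax6, Sox2, Six6 and Six3), against 19.2% of all 32851 promoter windows. Rax and Vax2 were not searched here. The match is a description of letters, and its part in the differences was not tested. Lhx9 and Pax6 hold the word and were higher, while Sox2, Six6 and Six3 hold it and overlapped between groups. Meis2 does not hold it and was higher, while Lhx2 and Meis1 do not hold it and overlapped. The homeobox word TAATTA, which reads the same on both strands, was in none of the 10 windows of these 8 factors, against 5.29% of all windows.

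Pax6, Meis2 and Lhx2 lie on chromosome 2, which had the largest share of tested rows with an unadjusted p under 0.05 of all chromosomes: 12.5% of 1004 rows, against 7.4% on the other chromosomes. The share was uneven along it. Within 5 Mb of Meis2, 17 of 71 other tested rows (23.9%) had such a p, 9 of them higher in the libraries labelled DKO, and within 5 Mb of Pax6 8 of 42 did (19.0%), 4 of them higher. Within 5 Mb of Lhx2 1 of 41 did (2.44%). Around Lhx9 and Vax2, on chromosomes 1 and 6, the counts were 4 of 44 and 3 of 81. The difference of Pax6 and Meis2 thus stands among neighbours of which more than the background share also differed at that level, and the part of their position in it was not tested.

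**Figure D4:**
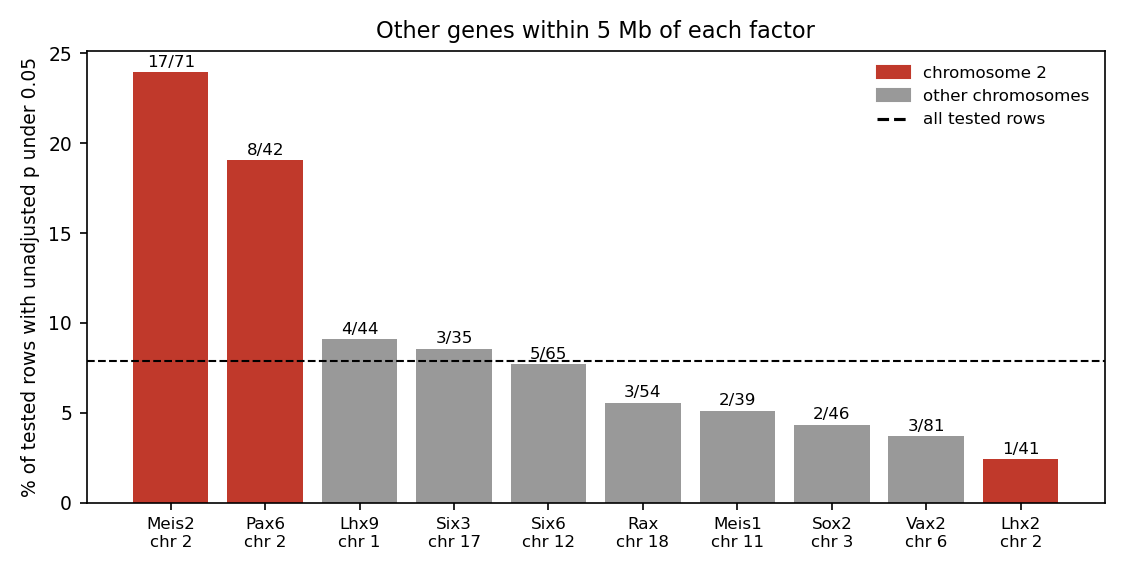
Share of other tested rows within 5 Mb of each factor with an unadjusted limma p under 0.05, in percent, with counts above the bars and all tested rows at 7.88% (dashed). Meis2 (23.9%) and Pax6 (19.0%), on chromosome 2, stand above the rest, and Lhx2, also on chromosome 2, is the lowest at 2.44%.

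Of the 20 nearest tested rows beside the 10 factors, 4 were lower and 0 higher without overlap in the libraries labelled DKO. Over all tested rows the shares were 6.95% lower and 6.96% higher. Paupar, a noncoding RNA 7.6 kb from Pax6, had a log2 difference of 0.18 and Elp4, whose introns hold enhancers of Pax6, had 0.09, both with overlapping groups. Next to Lhx9, 2310009B15Rik (3.4 kb away) measured 12.5 to 13.1 FPKM in the libraries labelled DKO and 15.0, 17.3 and 22.1 FPKM in those labelled control. It was lower without overlap, where Lhx9 was higher (log2 difference -0.45, limma, Benjamini-Hochberg adjusted p = 0.441). Nek7, the nearest tested row on the other side of Lhx9, had a log2 difference of -0.095 with overlapping groups. Beside Meis2, BC052040 had 0.02 and 2810405F15Rik -0.03, and beside Vax2, Stambp had 0.11 and 1700124L16Rik -0.25, all with overlapping groups.

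Relatives of the 10 factors were mostly low or absent. Of 27 family members listed, 15 reached a mean of 1 FPKM and were tested. Of these, 0 passed the threshold across all genes in limma with Benjamini-Hochberg adjustment. At an unadjusted p under 0.05 there were 2, against 7.88% of all tested rows. Lhx5, Lhx8, Sox14 and Sox21 are listed at 0 in all 6 libraries, and Vax1, the nearest relative of Vax2, lay at 0 to 0.645 FPKM. Among the tested relatives 5 had a log2 difference above 0 and 10 below. Pbx4, of the partner family of the MEIS factors, measured 2.90, 3.09 and 2.67 FPKM in the libraries labelled DKO and 4.61, 3.66 and 4.46 FPKM in those labelled control, without overlap (log2 difference -0.43, limma, Benjamini-Hochberg adjusted p = 0.395). The more abundant partners Pbx2 and Pbx3 had 0.15 and -0.13. Lhx1, a factor of horizontal cells, had 3.81 ± 0.254 FPKM in the libraries labelled DKO and 4.72 ± 0.280 FPKM in those labelled control (SD, n = 3 each; log2 difference -0.25). Of 13 tested genes of the list of other retinal progenitor genes, 6 were above 0 and 7 below, and Neurog2 was the 1 gene with an unadjusted p under 0.05 (log2 difference -0.40, limma adjusted p = 0.604).

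Genes of the dorsal and ventral retina, the axis that Vax2 helps to set, had differences of both signs. Of 9 tested, 5 were above 0 and 4 below, and 0 passed across all genes. In limma 4 had an unadjusted p under 0.05, against 7.88% of all tested rows. Tbx2, a dorsal factor, measured 30.8, 30.0 and 35.8 FPKM in the libraries labelled DKO and 38.5, 40.5 and 39.4 FPKM in those labelled control, lower without overlap (log2 difference -0.29). Its dorsal relative Tbx3 had 5.14 ± 0.299 and 3.88 ± 0.544 FPKM (labelled DKO and labelled control, SD, n = 3 each), higher without overlap (0.34). The dorsal ligand Efnb2 had a log2 difference of 0.24 and the ventral receptor Ephb2 0.19, each without overlap. The cone opsins, which are graded along this axis in the mouse, were lower without overlap: Opn1sw averaged 102 ± 7.56 and Opn1mw 80.1 ± 4.52 FPKM in the libraries labelled DKO, against 122 ± 5.02 and 102 ± 12.0 FPKM in those labelled control (SD, n = 3 each). Their adjusted p was 0.379 and 0.388 in limma with Benjamini-Hochberg adjustment. The cone genes Arr3 (log2 difference -0.08) and Gnat2 (-0.19) overlapped between groups, and the rod gene Nrl (-0.13) was lower without overlap. The unadjusted limma p was 0.534 for Arr3, 0.0269 for Gnat2 and 0.0264 for Nrl (Benjamini-Hochberg adjusted p = 0.920, 0.591 and 0.590). Any tie of the opsin values to Vax2 was not tested.

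Marker lists of the retinal cell classes that keep the 10 factors were set beside them. In bulk RNA, fewer cells of a class and less RNA per cell cannot be told apart. The amacrine list, of the cells in which Pax6, Meis2 and Lhx9 stay on, had 11 of 16 tested genes above 0, a median log2 difference of 0.15, and 9 genes higher and 2 lower without overlap. At an unadjusted limma p under 0.05 it held 7 higher and 2 lower genes, and 0 passed across all genes. Over all tested rows, 3.52% were higher and 4.36% lower at that p, and 6.96% were higher and 6.95% lower without overlap. Slc32a1, the vesicular GABA transporter, averaged 46.1 ± 1.04 FPKM in the libraries labelled DKO and 40.3 ± 2.58 FPKM in those labelled control (SD, n = 3 each; log2 difference 0.19). The AP-2 factors Tfap2a, Tfap2b and Tfap2c had 0.31, 0.25 and 0.26, and the GABA-making enzymes Gad1 and Gad2 had 0.16 and 0.22. Calb2, a calcium-binding protein, and Slc18a3, the vesicular transporter of acetylcholine, had -0.19 and -0.42. The summed level of the amacrine list was 930 to 948 FPKM in the libraries labelled DKO and 883 to 934 FPKM in those labelled control. The part of amacrine content in the Pax6, Meis2 and Lhx9 values was not tested.

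The Müller glia list, of the cells that keep Rax, Lhx2 and Sox2, had a median log2 difference of 0.02, with 9 of 14 genes above 0. Rlbp1, a retinoid carrier of Müller glia, had 200 ± 12.1 FPKM in the libraries labelled DKO and 195 ± 2.07 FPKM in those labelled control (SD, n = 3 each; log2 difference 0.03), and Dkk3 was the 1 gene of the list that rose past the threshold across all genes (0.93, limma, Benjamini-Hochberg adjusted p = 0.0027). The list summed to 2655 to 2875 FPKM in the libraries labelled DKO and 2462 to 2580 FPKM in those labelled control, and without Dkk3 the other 13 genes summed to 2239 to 2401 FPKM in the libraries labelled DKO and 2234 to 2339 FPKM in those labelled control, which overlap. The ganglion cell list, of further cells that keep Pax6 and Six6, had a median of -0.13, with 3 of 13 genes above 0. In it 8 genes were lower and 1, Eomes (log2 difference 0.41, limma, Benjamini-Hochberg adjusted p = 0.336), was higher without overlap, and the list summed to 777 to 796 FPKM in the libraries labelled DKO and 848 to 906 FPKM in those labelled control. The horizontal cell list had a median of -0.07, the bipolar list -0.12 and the rod and cone list -0.08. Without overlap these held 3 lower and 1 higher, 4 lower and 0 higher, and 3 lower and 0 higher genes. Of all tested rows, 6.95% were lower and 6.96% higher without overlap. Sums in the libraries labelled DKO and labelled control were also apart for the horizontal (466 to 503 and 507 to 516.5 FPKM) and bipolar lists (901 to 955 and 982 to 1025 FPKM). The rod and cone sums overlapped. Some genes stand on more than 1 of these lists.

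**Figure D5:**
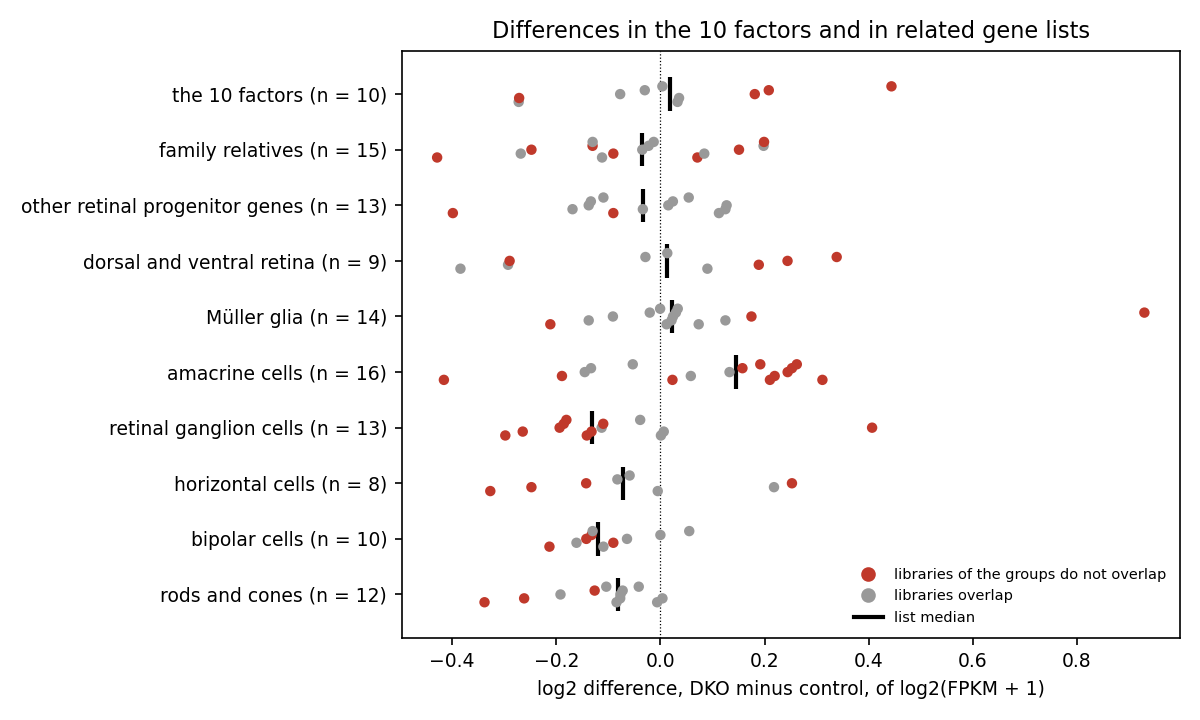
Log2 difference (DKO minus control) of each tested gene in the 10 factors and in 9 related lists, with a black bar at the list median and red points where the libraries of the groups do not overlap. The amacrine list has its median at 0.15, the ganglion cell list at -0.13 and the bipolar list at -0.12. The 10 factors spread from -0.27 to 0.44 around a median of 0.02.

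For Lhx9, the factor with the largest difference, the tested rows of most similar pattern were found by the root mean square difference of centred log2(FPKM + 1) over the 6 libraries. They were AA415398 (0.074), the calcium release channel Ryr3 on chromosome 2 (0.077), Lrrc66 (0.084), Trim66 (0.085) and Tfap2a (0.092), the last an amacrine factor. With 6 libraries and 13215 rows such likeness describes these libraries alone.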

How the data were processed

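RNA of tissue labelled as mouse brain was taken up in TRIzol and libraries were built with an Illumina kit for stranded mRNA, per the labels' protocols. The values are in FPKM as the authors deposited them, per the file headers, in 1 file per library; the headers carry the letters CKO for the libraries labelled DKO. The submitters' processing notes name the build mm10 and the tools Cuffdiff 2.2.1, Bowtie2 and TopHat2 2.1.1. Options, annotation, filters and scaling: not given in the sources used here. Precision comes from the spread of 3 libraries per group.

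Of 24346 rows, the 13215 averaging 1 FPKM or more over both groups together entered a limma 3.58.1 fit in R 4.3.3 (log2(FPKM + 1), eBayes with a trend, DKO minus control, Benjamini-Hochberg adjustment over all of them). All 10 factors entered. This scale shrinks the differences of low genes. Simulated data took the means and spread of these 13215 rows, with independent normal noise in each row. In them 68, 62 and 70 genes were changed by 0.5, 1 and 2 on the log2 scale. The fit recovered 70.6%, 87.1% and 98.6% of these, with 3.39% of calls false. Real libraries, in which 3 rows passed, may hold fewer changes and noise shared between rows, so these shares need not hold there. On the log2(FPKM + 1) scale the 10 factors differed by less than 0.5, Lhx9 by 0.44 (0.53 with a pseudocount of 0.1). Single values had a 2-sided exact permutation test (20 assignments; SciPy 1.17.1, NumPy 2.4.6, pandas 2.3.3, Python 3.11.15). Relative depth was the most frequent ratio between libraries of values under 0.3 FPKM.

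By name, 23268 rows matched GENCODE M21, which uses the GRCm38 assembly, as mm10 does. Sites were searched in 3′ UTRs of its coding transcripts, and motifs in RefSeq promoter windows.

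The 10 factors, the gene lists, the 5 Mb windows and the motifs were chosen with earlier results of these data known. Genes named from a list are those past the threshold, else up to 6 of smallest p under 0.05 before adjustment; others, named for tissue or a tie to a factor, were chosen after their values were seen, and some genes that the rule takes are left out here. For the nearest rows on each side, those of 4 factors are printed. The alternatives changed the pseudocount (0.1, 0.5), the filter (none, or 5 FPKM), the scaling (median of ratios, quantile), the eBayes trend, the replicate block, rows of short RNAs (left out) and the libraries (each left out).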

Additional observations from a re-analysis of the deposited data

How the results depend on the processing

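Under 15 alternatives, 0 of the 10 factors passed the adjusted threshold in any, with limma adjusted p (Benjamini-Hochberg) from 0.267 upward. Lhx9, Meis2, Pax6 and Vax2 kept their direction and an unadjusted limma p under 0.05 in every alternative that tested them; Lhx9, at a mean of 4.66 FPKM, was not tested with the filter of 5 FPKM. The median log2 difference of the 10 factors ran from -0.04 (without DKO replicate 1) to 0.07 (without control replicate 1). Of 149 values of single factors, 142 kept their sign. Without single libraries the log2 difference of Six3 ran from -0.0475 (without DKO replicate 1) to 0.0856, also turning to -0.0014 without control replicate 3. That of Lhx2 ran from -0.0501 (without control replicate 2) to 0.108, with -0.0313 without DKO replicate 1 and -0.0465 without control replicate 3. That of Sox2 ran from -0.0928 to 0.053 (without control replicate 1), with 0.0417 without DKO replicate 2. Rax reached an unadjusted limma p under 0.05 in 3 alternatives: without DKO replicate 1 (log2 difference -0.38), without control replicate 3 (-0.39) and with the replicate block. The Six3 to Six6 ratio ran from -0.0077 (without DKO replicate 1) to 0.20, the Meis2 to Meis1 ratio from 0.16 to 0.21 and the Lhx2 to Lhx9 ratio from -0.71 to -0.36, where 2 libraries against 3 can give no exact permutation p under 0.2. The count of all tested rows past the threshold, 3, was 1 with eBayes without a trend and ran from 1 (without control replicate 2) to 4 without single libraries. What causes this was not tested. The summed Müller glia list, run without Dkk3 as a choice made after seeing the data, no longer separated the groups.

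With the replicate block 2 rows in all passed and 0 factors did. In that limma fit 5 factors had a small unadjusted p, Rax (0.0020, Benjamini-Hochberg adjusted p = 0.304) being added. The numbers are not taken to pair the libraries: across genes, deviations from the group mean correlated at 0.072, 0.0063 and 0.10 between libraries of the same number, and 4 of 6 libraries correlated best with their own number. In 5 factors (Rax, Six3, Lhx2, Sox2 and Vax2) replicate 1 was the highest library of both groups. Values without read totals limit what can be said of low genes such as Lhx9.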
